A study of Homo sapiens with 6 samples.

Results

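The S100 calcium-binding proteins were followed at the RNA level in HCT116SCs after PSCA knockdown. The set holds 10 genes, S100A2, S100A3, S100A4, S100A6, S100A10, S100A11, S100A13, S100A14, S100A16 and S100P, taken by gene symbol from the 58735 genes of the deposited expression table. All 10 were found in it. HCT116SCs are the CD44+CD326+ cells that the authors sorted with magnetic beads from the human colorectal cancer line HCT116 and grew as tumor spheres in serum-free medium with EGF, bFGF and B27. Both groups were the same cells treated with a liposomal transfection reagent: 3 libraries came from cells given negative control siRNA (NC, labelled wild type) and 3 from cells given PSCA siRNA (siPSCA, labelled PSCA knockdown), all harvested after 48 h. The labels name replicates 1 to 3 of each group but do not state that they were separate cultures, so p-values measure the spread between these libraries, which may be technical. The titles of siPSCA 2 and siPSCA 3 carry another number after HCT than the remaining labels, and which PSCA siRNA sequence was used for sequencing is not given in the sources used here.

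S100 proteins are small proteins with paired EF-hand calcium-binding motifs that mostly work as dimers. On binding calcium most of them expose a surface that docks onto target proteins, among them annexins, cytoskeletal motors and p53, and several are also released from cells and act on surface receptors. S100A10 is the known exception, since it holds an active shape without calcium. In epithelial tumors S100A4 is known for its links to motility and metastasis, and S100A6, S100A11 and S100P are often abundant in colorectal tumors.

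Reads on genes numbered 16099716 to 17302219 per library, and 6.33% to 7.95% of them were mitochondrial. The targeted transcript, PSCA, had 4, 12 and 15 reads in NC against 9, 9 and 7 reads in siPSCA, a ratio of 0.784 from summed reads with an exact binomial 95% interval of 0.444 to 1.37, so a knockdown was not detectable from its reads at this depth. The paper's evidence of knockdown is at the protein level, where Western blots of HCT116SCs showed less PSCA with each of its PSCA siRNAs than in the controls. NC 3 stood apart from the rest of its group: its reads differed from those of NC 1 and NC 2 by a chi-square of 24.4 and 19.6 per degree of freedom, against 2.40 to 4.15 for the other pairs within a group. The log2 fold changes of all genes also followed GC content (Spearman correlation 0.675 across 13792 genes, which are not independent replicates and share these 6 libraries). Values of the tested S100 genes are therefore also given without NC 3 and after a smooth trend on GC content and gene length was removed from each library. Of 10 epithelial and colorectal markers, EPCAM (which encodes CD326) lay between 93.3 and 123 FPKM and CD44 between 59.6 and 87.5 FPKM in the 6 libraries, CDX1 was listed at 0, and VIL1 reached at most 0.0407 FPKM. Of the 8 of these markers that were tested, 6 passed in the deposited values (75%, against 50.7% of all genes). CD44 fell from 82.6 ± 4.36 to 60.7 ± 1.51 FPKM (SD, n = 3 each, log2 fold change -0.44, limma adjusted p = 0.00193). The E-cadherin gene CDH1 fell as well, and KRT19, KRT8, CLDN7 and CDX2 rose. With the GC and length trend removed 4 of the 8 passed, against 39.8% of all genes. CD44 (-0.29), CDH1 (-0.59) and KRT18 (-0.46) were lower and CDX2 (0.42) higher. KRT19, KRT8 and CLDN7 then had -0.19, -0.04 and 0.15 and did not pass (limma adjusted p = 0.0949, 0.564 and 0.116). The 8 leukocyte markers summed to 0.442 to 0.630 FPKM in NC and 0.434 to 0.774 FPKM in siPSCA, with CD3E and CD68 listed at 0. The 9 stromal and endothelial markers summed to 3.69 to 5.99 FPKM in NC and 6.39 to 6.97 FPKM in siPSCA, nearly all of it COL1A1, with LUM listed at 0. The part of such cells, and of a different make-up of the epithelial cells, in the S100 values was not tested.

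Under siPSCA, 4 S100 transcripts rose and 1 fell. S100A3, S100A4, S100A6 and S100A16 rose, S100A13 fell, and S100A2, S100A10, S100A11 and S100A14 did not pass the test. S100P lay under the expression minimum and was not tested. The test was the linear model of limma on log2(FPKM + 1), where FPKM is a level scaled for gene length and for the reads of the library, for the 13796 genes with a mean of at least 1 FPKM, at an adjusted p under 0.05 over all of them. Of the 9 S100 genes tested, 5 were called (55.6%), against 50.7% of all genes, and of all genes 26.6% were called higher and 24.2% lower. The share is near that background and says nothing particular about the S100 family. By the cut-offs given for enriched terms in the study, p under 0.05 before adjustment and a change past 0.5 on the log2 scale, 3 of the 9 were called (S100A3 and S100A4 higher, S100A13 lower), against 24.9% of all genes, 14.7% higher and 10.2% lower. The median log2 fold change was 0.04 over the 9 and 0.01 over all genes. The groups did not overlap for 6 of the 9, of which 4 were higher and 2 lower in siPSCA, against 64.5% of all genes, 33.7% higher and 30.8% lower. For a single gene an exact permutation test of 3 libraries against 3 cannot give a p below 0.1, and those 6 reached it. In bulk RNA, fewer cells that carry a transcript and less of it per cell cannot be told apart.

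**Figure D1:**
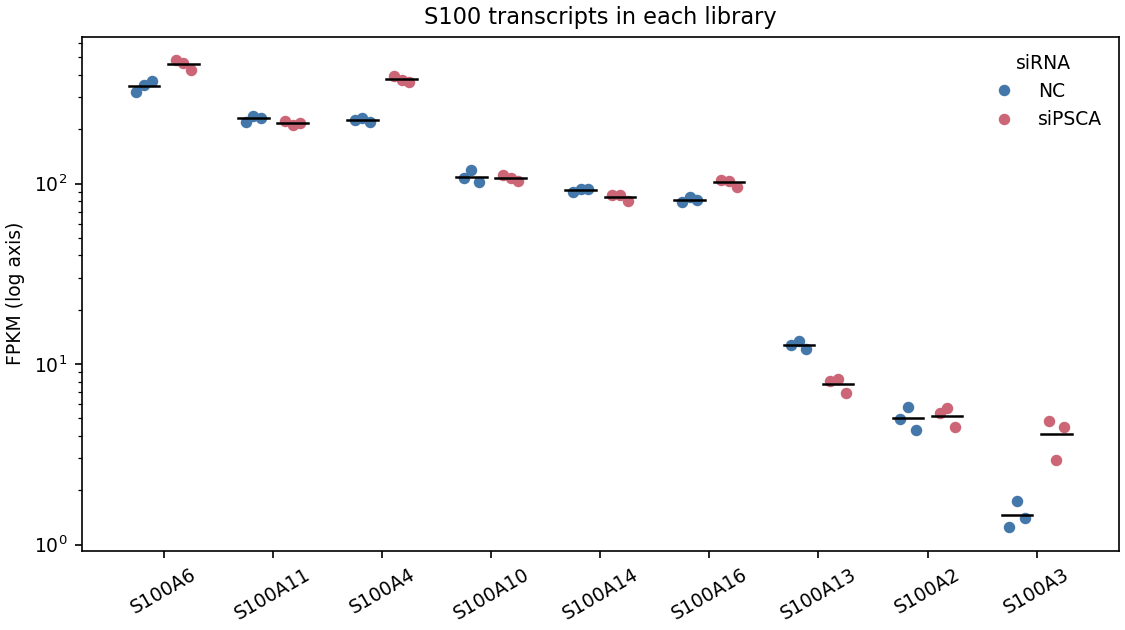
FPKM on a log axis of the 9 tested S100 transcripts in each library, ordered by their NC mean; points are libraries (blue NC, red siPSCA) and bars are means of 3. The siPSCA points of S100A4 (365 to 397 FPKM) lie above its NC points (220.5 to 231 FPKM), whereas those of S100A10 overlap.

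The S100 genes spanned over 3 orders of magnitude in level. In NC the order by mean FPKM, a level per gene length, was S100A6, S100A11, S100A4, S100A10, S100A14, S100A16, S100A13, S100A2, S100A3 and S100P. S100A11 and S100A4 overlapped in NC, and every other pair of neighbours in that order was separated in all libraries. S100A6 ranked 56th of all genes by NC mean, S100A11 ranked 94th and S100A4 ranked 98th. In siPSCA, S100A4 stood clear of S100A11 in second place, S100A16 had moved past S100A14 to overlap S100A10, and S100A3 overlapped S100A2. Together the 10 transcripts summed to 1061, 1137 and 1118 FPKM in the NC libraries and 1423, 1364 and 1302 FPKM in the siPSCA libraries. This was 0.400% ± 0.0214 (SD, n = 3) of the summed FPKM of all genes in NC and 0.477% ± 0.0197 (SD, n = 3) in siPSCA. These sums are of the deposited values and were not computed with the GC and length trend removed. Under that step S100A6 and S100A16, which are part of the sum, had log2 fold changes of 0.07 and 0.03. S100A4 took 20.4% of the S100 sum in NC and 27.8% in siPSCA, while S100A11 took 20.8% and 15.9%, and S100A6 31.5% and 33.5%.

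S100A4, which binds non-muscle myosin and liprin beta 1 and is known from metastasis, was the most abundant of the transcripts with a log2 fold change beyond 0.5. It lies on chromosome 1 from 153543613 to 153550136 (GRCh38, minus strand). Its FPKM was 225, 231 and 220.5 in NC 1, NC 2 and NC 3, and 397, 374 and 365 in siPSCA 1, siPSCA 2 and siPSCA 3. Every siPSCA library lay above every NC library, and replicates were tight, with a coefficient of variation of 2.30% in NC and 4.32% in siPSCA. The mean rose 1.68-fold, from 225 ± 5.19 to 379 ± 16.4 FPKM (SD, n = 3 each), with a log2 fold change of 0.75 (SE, the standard error, 0.05, 95% interval 0.62 to 0.87, limma adjusted p = 0.000469). A larger rise was seen in 6.79% of all genes tested. The log2 fold change was 0.73 without NC 3 and 0.70 with removal of the GC and length trend, both past the threshold. The numbers of reads behind it were 3874 to 4120 in NC and 6814 to 6880 in siPSCA.

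S100A6, which binds annexin A11 and the calcyclin-binding protein CACYBP, was the highest of the S100 transcripts in all 6 libraries. It lies on chromosome 1 from 153534599 to 153536244. Its FPKM was 322, 351 and 372 under NC siRNA and 483, 464 and 425 under PSCA siRNA. The groups did not overlap, although NC 3 and siPSCA 3 were the closest across them. The mean rose 1.31-fold, from 348 ± 25.0 to 457 ± 29.5 FPKM (SD, n = 3 each), with a log2 fold change of 0.39 (SE 0.08, limma adjusted p = 0.00744). S100A6 had the highest GC content of the 10 (59.9%), and its log2 fold change was 0.07 after removal of the GC and length trend, no longer past the threshold (limma adjusted p = 0.660). Without NC 3 it was 0.44, and with both steps 0.21 (limma adjusted p = 0.0337).

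S100A16, which is widely expressed in epithelia, lies on chromosome 1 from 153606886 to 153613145. Its FPKM was 79.0, 84.3 and 80.9 under NC siRNA and 105, 104 and 95.6 under PSCA siRNA, without overlap. The mean rose 1.25-fold, from 81.4 ± 2.71 to 101 ± 5.10 FPKM (SD, n = 3 each), with a log2 fold change of 0.31 (SE 0.06, limma adjusted p = 0.00564). With a GC content of 57.8%, this value was 0.03 after removal of the GC and length trend and did not pass (limma adjusted p = 0.687). S100A4, with a GC content of 53.1%, kept 0.70 under the same step. Without NC 3 the value of S100A16 was 0.31, and with both steps 0.09, which did not pass (limma adjusted p = 0.142).

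S100A3, a cysteine-rich member known from hair cuticle, had the largest log2 fold change of the 10 and few reads. It had 20, 29 and 23 reads under NC siRNA and 78, 50 and 78 under PSCA siRNA. These gave 1.25, 1.74 and 1.40 FPKM in NC against 4.83, 2.95 and 4.48 FPKM in siPSCA, with siPSCA 2 the lowest of its group but above every NC library. The mean rose 2.79-fold, from 1.46 ± 0.255 to 4.09 ± 1.00 FPKM (SD, n = 3 each), with a log2 fold change of 1.03 (SE 0.17, 95% interval 0.63 to 1.43, limma adjusted p = 0.00426). Since 1 was added to each FPKM, this log2 value understates the change of so low a transcript, and it was 1.40 with 0.1 added instead. From summed reads, 72 against 206, the ratio was 2.78 with an exact binomial 95% interval of 2.12 to 3.69, which covers counting error only. Without NC 3 the log2 fold change was 1.01. After removal of the GC and length trend it was 0.77 and still passed (limma adjusted p = 0.0167). S100A3 lies from 153547329 to 153549372 within the span of S100A4 on the same strand. The exons of the 2 genes share 0 bases, and the part of unspliced S100A4 RNA in the reads of S100A3 was not tested.

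S100A13, which takes part in the export of FGF1 and interleukin 1 alpha without a signal peptide, was the only one of the 9 to fall past the threshold in the deposited values. It lies on chromosome 1 from 153618787 to 153631360. Its FPKM was 12.7, 13.4 and 12.2 under NC siRNA and 8.06, 8.30 and 6.94 under PSCA siRNA, from 465 to 519 and from 280 to 327 reads. All siPSCA libraries lay below all NC libraries. The mean was 12.8 ± 0.639 FPKM in NC and 7.76 ± 0.729 FPKM in siPSCA (SD, n = 3 each), a ratio of 0.608 and a log2 fold change of -0.65 (SE 0.08, 95% interval -0.84 to -0.47, limma adjusted p = 0.00176). A larger fall was seen in 6.50% of all genes tested. Without NC 3 the log2 fold change was -0.68, and after removal of the GC and length trend it was -0.85. Exons of S100A13 share 536 bases (24.2% of its own) with the transcript AL162258.1 on the same strand, which had 0 or 1 read in each library. They share 235 bases (10.6%) with S100A1 on the opposite strand, and whether the counting used strand is not given in the sources used here.

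**Figure D2:**
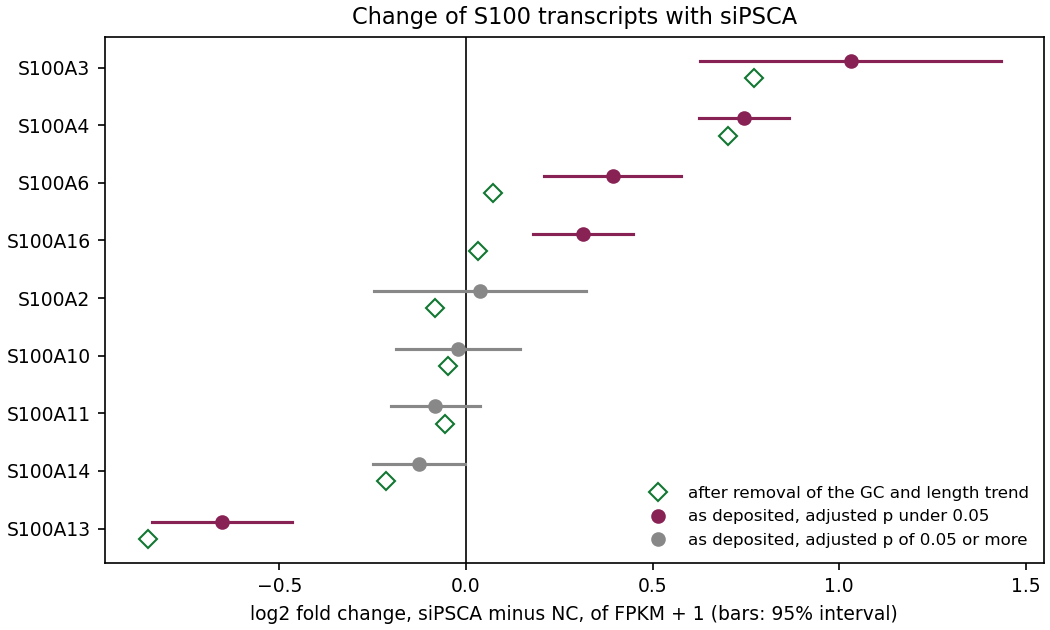
Log2 fold change (siPSCA minus NC, of FPKM + 1) of the 9 tested S100 transcripts; circles with 95% intervals are from the deposited values (dark red where the adjusted p was under 0.05) and open diamonds are from the same fit after removal of the GC and length trend. S100A3, S100A4 and S100A13 keep their side of 0 at 0.77, 0.70 and -0.85, while S100A6 and S100A16 move to 0.07 and 0.03.

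The other transcripts of the set gave no call. S100A11, a partner of annexin A1, had 220.1, 237 and 232 FPKM in the NC libraries and 222, 211 and 217 FPKM in the siPSCA libraries, which overlapped. Its log2 fold change was -0.08 with a 95% interval of -0.20 to 0.04 (limma adjusted p = 0.202). S100A10, which joins annexin A2 in a complex at the plasma membrane and serves as a docking site for plasminogen, had 107, 119 and 102 FPKM against 112, 107 and 104 FPKM. These overlapped fully, with a log2 fold change of -0.02 and a 95% interval of -0.19 to 0.14 (limma adjusted p = 0.812). S100A2, known as a p53-responsive member with reduced levels in some carcinomas, had 4.98, 5.79 and 4.30 FPKM against 5.36, 5.67 and 4.48 FPKM. Its log2 fold change was 0.04 with a wider interval of -0.25 to 0.32 (limma adjusted p = 0.805). Without NC 3 the values of S100A11, S100A10 and S100A2 were -0.07, -0.07 and -0.05, and with the GC and length trend removed they were -0.06, -0.05 and -0.08, none of them past the threshold. In the deposited values the intervals of S100A10 and S100A11 thus lay between about -0.20 and 0.14 on the log2 scale, and that of S100A2 was wider. They reflect the spread between these libraries only.

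S100A14, an epithelial member that lies next to S100A16 on chromosome 1, had 89.3, 93.7 and 93.0 FPKM in the NC libraries and 86.2, 86.5 and 79.9 FPKM in the siPSCA libraries. All siPSCA libraries were lower, but the difference was small, from 92.0 ± 2.36 to 84.2 ± 3.69 FPKM (SD, n = 3 each). The log2 fold change of -0.13 (standard error 0.05) had an unadjusted p of 0.0462 and an adjusted p of 0.0808 from limma. Without NC 3 it was -0.12. After removal of the GC and length trend it was -0.21 and passed (limma adjusted p = 0.00651), so that 4 of the 9 were then called, 2 higher and 2 lower, against 39.8% of all genes. S100P, which is encoded on chromosome 4 from 6693069 to 6697170 and binds ezrin, had 0, 3 and 7 reads in NC and 2, 5 and 5 in siPSCA. The ratio from 10 and 12 reads in all was 1.17 with an exact binomial 95% interval of 0.462 to 3.01, so no difference was detectable at this depth.

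The rest of the family was scarce in these cells. Of 11 further S100 genes, S100A5 was the only one tested, with a log2 fold change of -0.06 (limma adjusted p = 0.600) and a ratio from 189 and 185 summed reads of 0.952 (exact binomial 95% interval 0.773 to 1.17). S100A1 lay under the minimum, with 24, 18 and 8 reads under NC siRNA and 39, 42 and 46 under PSCA siRNA. Its summed reads gave a ratio of 2.47 (exact binomial 95% interval 1.77 to 3.50, counting error only), and its adjusted p was 0.0554 in limma's fit over all 34391 genes with a read. S100A1 was thus higher in each siPSCA library, whereas S100A13, which overlaps it on the other strand, was lower in each. S100A7, S100A9, S100B, S100G and S100Z had 1 to 7 reads in all 6 libraries together, and S100A7A, S100A7L2, S100A8 and S100A12 had 0, which allows up to 3 reads in a library. S100A8 and S100A9, the subunits of calprotectin, are best known from myeloid cells.

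Whether genes share exact stretches of sequence was checked on the transcripts of GENCODE release 29. Near-identical copies with mismatches were not searched for. Of all stretches of 50 bases in the transcripts of each S100 gene, 0 occurred in a transcript of another gene for S100A2, S100A3, S100A4, S100A6, S100A10, S100A14, S100A16 and S100P. For S100A11 the share was 1.91%, and for S100A13 it was 25.7%, from its overlap with AL162258.1 and S100A1.

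All of the set but S100P lie close together on chromosome 1, S100A10 and S100A11 apart at one end and the others side by side. Along the chromosome, S100 transcripts that passed lay among others that did not. S100A6 rose, S100A5 next to it had a log2 fold change of -0.06, S100A4 and S100A3 rose, S100A2 had 0.04, S100A16 rose, S100A14 had -0.13 and S100A13 fell. With the GC and length trend removed S100A6 and S100A16 had 0.07 and 0.03 and did not pass, and S100A14 had -0.21 and passed. Within 250 kb of the outermost S100 genes (151732915 to 153881360 of chromosome 1) lay 109 genes other than S100 genes, of which 11 were tested and 3 called (27.3%, against 50.7% of all genes). SLC27A3, a fatty acid transport protein, rose from 1.77 ± 0.399 to 3.07 ± 0.0742 FPKM (SD, n = 3 each, log2 fold change 0.57, limma adjusted p = 0.00967), which was 0.15 and did not pass with the GC and length trend removed. SNAPIN, a SNARE-associated protein, had 0.35 (limma adjusted p = 0.0275) and GATAD2B, a subunit of the NuRD complex, -0.25 (limma adjusted p = 0.0122). With the GC and length trend removed SNAPIN had 0.25 and did not pass (limma adjusted p = 0.0763). It also did not pass without an FPKM minimum (limma adjusted p = 0.0675), without NC 1, siPSCA 1 or siPSCA 3 (0.29, 0.29 and 0.37) or with a replicate block (limma adjusted p = 0.0630). GATAD2B did not pass without siPSCA 1 or siPSCA 2 (-0.24 and -0.24). Without siPSCA 1, 1 of the tested neighbours and 4610 of all genes were called.

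**Figure D3:**
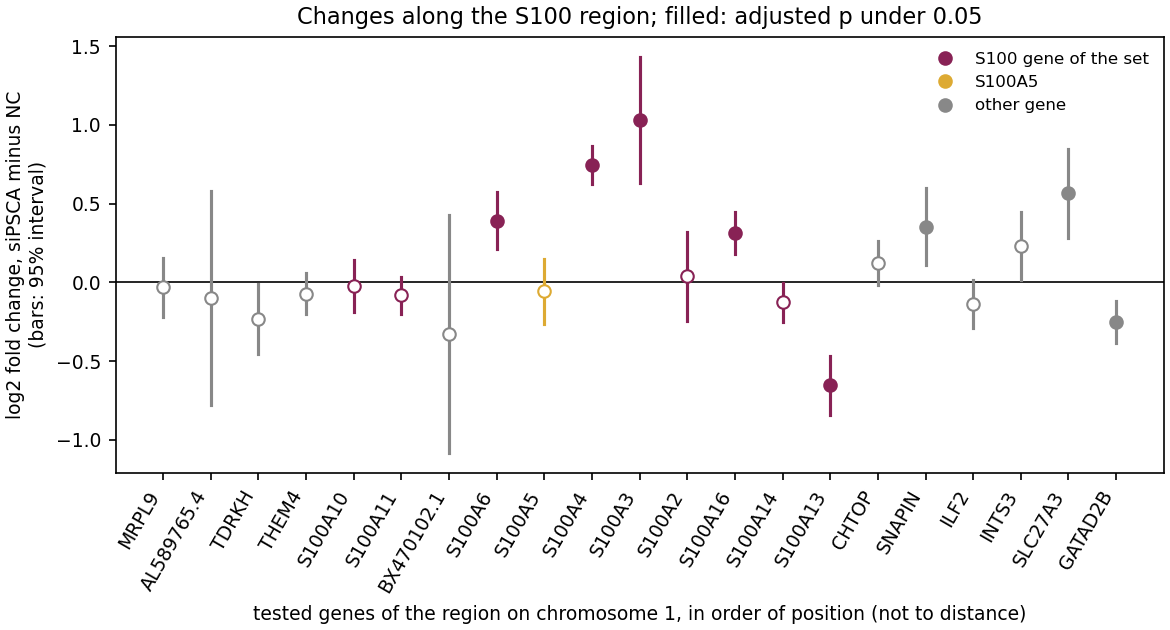
Log2 fold change (siPSCA minus NC, of FPKM + 1, with 95% intervals) of the tested genes of the S100 region in their order on chromosome 1; dark red marks the S100 genes of the set, yellow S100A5 and grey other genes, and filled circles have an adjusted p under 0.05. S100A6, S100A4, S100A3 and S100A16 lie above 0, S100A13 below it, and S100A5, S100A2 and S100A14 among them are not called.

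The start regions of the 5 called genes are shown because these genes, which lie close together, did not all move the same way. RefSeq (GRCh38.p14) lists 14 starts for the 10 genes. The lines give, for each start within the gene's deposited span, the 30 bases from 40 to 11 bases before the start, 5′ to 3′ on the minus strand, with the sequence TATAAA in capitals where it occurs.
S100A6, chr1:153536002-153536031: caccgaccgctataaggccagtcggactgc
S100A4, chr1:153545817-153545846: tggctggggTATAAAtaggtcagacctctg
S100A3, chr1:153549269-153549298: aaaacccccaggggtcgggagggtaacctc
S100A16, chr1:153609366-153609395: gggcgagagtgattggcaggctggctggag
S100A16, chr1:153613148-153613177: gtgtatccctttaacaagggcccaacccca
S100A13, chr1:153627250-153627279: tgtgagtgcctgtactaaacccgtcctgga
S100A13, chr1:153627516-153627545: tccccgctgctTATAAAcctcagccctgag

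In the 250 bases before the start, searched on both strands, TATAAA (the usual form of the TATA box) was found for S100A4, 31 bases before the start, for 1 of the 3 starts of S100A13, 29 bases before it, and for S100P, 28 bases before it. Of all 35116 listed starts, 10.7% hold it. The AP-1 element TGANTCA was found for S100A3 and for 1 start of S100A2 (6.57% of all starts). GGGCGG (the GC box) was found for 6 of the 14 starts (42.6% of all). GCGTG (the core of the aryl hydrocarbon receptor element, and also a form of the hypoxia response core) was found for 7 (32.2%). ACGTG (the other form of the hypoxia response core) was found for 1, of S100A16 (18.5%). S100A4, which rose, and S100A13, which fell, thus both hold TATAAA, while no window of S100A3, S100A6 or S100A16, which rose, holds these exact letters, near variants not having been searched. A match is a description of these letters, and its use in these cells was not measured.

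Partners of S100 proteins were taken from a list of 18 binding partners and receptors, of which 15 were tested. Of these, 3 rose, 6 fell and 6 did not pass (60%, against 50.7% of all genes), with a median log2 fold change of -0.06. AHNAK, a giant scaffold bound by the S100A10 and annexin A2 complex, had 96.8, 98.3 and 109 FPKM in the NC libraries and 42.7, 43.4 and 46.9 FPKM in the siPSCA libraries. It fell without overlap, with a log2 fold change of -1.17 (SE 0.07, limma adjusted p = 0.000278) and of -1.08 after removal of the GC and length trend. PPFIBP1, which encodes liprin beta 1, a partner of S100A4, fell from 20.1 ± 0.738 to 12.5 ± 0.204 FPKM (SD, n = 3 each), with a log2 fold change of -0.65 (limma adjusted p = 0.000614), while S100A4 itself rose. With the GC and length trend removed PPFIBP1 had -0.34 and still passed. MYH9, which encodes a heavy chain of non-muscle myosin, the other S100A4 partner, had 74.5 ± 8.44 FPKM in NC and 81.0 ± 0.827 FPKM in siPSCA (SD, n = 3 each), which overlapped, and did not pass (log2 fold change 0.12, limma adjusted p = 0.246). ANXA11, whose product binds S100A6, rose from 12.1 ± 0.186 to 17.2 ± 0.629 FPKM (SD, n = 3 each), with a log2 fold change of 0.48 (limma adjusted p = 0.00128), in the same direction as S100A6 in the deposited values. With the GC and length trend removed ANXA11 had 0.39 and still passed, whereas S100A6 had 0.07 and did not.

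The other known partners had smaller log2 fold changes than AHNAK, PPFIBP1 and ANXA11. ANXA2, the partner of S100A10, had 150.1, 157 and 180 FPKM in the NC libraries and 133, 133 and 137 FPKM in the siPSCA libraries, with NC 3 the highest. Its log2 fold change was -0.27 (limma adjusted p = 0.0250), and it did not pass without siPSCA 1, siPSCA 2 or siPSCA 3 (-0.26, -0.26 and -0.28) or without an FPKM minimum (limma adjusted p = 0.0686). With the GC and length trend removed it was -0.15 and passed. ANXA1, the partner of S100A11, had a log2 fold change of -0.03 (95% interval -0.17 to 0.11, limma adjusted p = 0.668), but with the GC and length trend removed it was 0.29 and passed. CACYBP, which binds S100A6, had -0.01 (95% interval -0.23 to 0.20, limma adjusted p = 0.902). Under that step it had 0.20 and passed as well (limma adjusted p = 0.0163). EZR, which encodes ezrin, a partner of S100P, fell from 234 ± 8.42 to 193 ± 4.48 FPKM (SD, n = 3 each), with a log2 fold change of -0.28 (limma adjusted p = 0.00525) that was -0.36 under that step. S100PBP, the S100P-binding protein, had -0.20 (limma adjusted p = 0.0417), which passed without siPSCA 1 but not without NC 1, NC 2, NC 3, siPSCA 2 or siPSCA 3 (-0.18, -0.23, -0.20, -0.17 and -0.19), and it was 0.06 after removal of the trend.

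**Figure D4:**
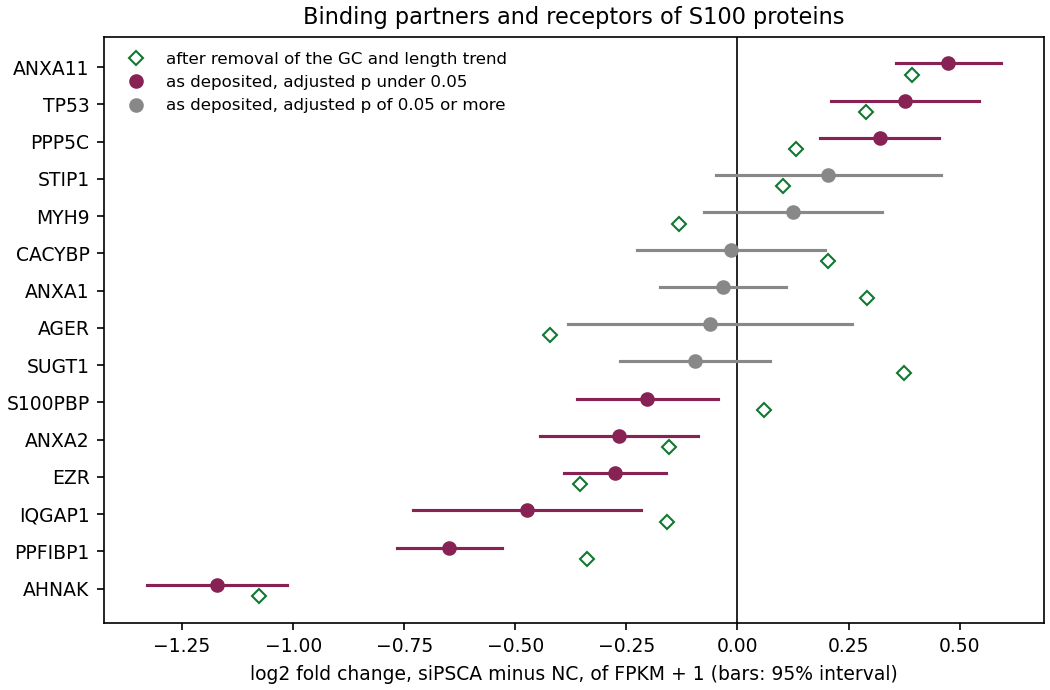
Log2 fold change (siPSCA minus NC, of FPKM + 1, with 95% intervals) of the 15 tested partners and receptors of S100 proteins; dark red circles have an adjusted p under 0.05 and open diamonds are values after removal of the GC and length trend. AHNAK is lowest at -1.17 and ANXA11 highest at 0.48.

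Among 22 other EF-hand proteins, such as calmodulins, calpains and the CREC proteins of the secretory pathway, 21 were tested, of which 6 rose, 7 fell and 8 did not pass (61.9%, against 50.7% of all genes). Their log2 fold changes ran from -1.48 for NUCB2, a Golgi calcium-binding protein, to 0.75 for CAPN1, the large subunit of mu-calpain, and CALU, a calcium-binding protein of the secretory pathway, had -0.66. All of these passed (limma adjusted p = 0.000703, 0.00243 and 0.00201), and with the GC and length trend removed they had -1.10, 0.37 and -0.39 and passed. The S100 genes ranged from -0.65 to 1.03. Only S100A3, a transcript with few reads, lay above CAPN1 (0.753), while S100A4 had 0.745. Of the 7 large S100-fused genes, which join an S100-like start to long repeats and act in skin, 0 were tested. HRNR had the most reads of them, 107 in the 6 libraries together.

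Across the 6 libraries, the protein-coding genes most like S100A3 by Pearson correlation of log2(FPKM + 1) were MECR (0.993), SMPDL3B (0.993) and COMMD1 (0.991), and those most like S100A13 were ARMCX3 (0.998), BET1 (0.998) and ZKSCAN2 (0.997). The 6 points fall into the NC and siPSCA groups, so a gene that differs between them in the same direction can score high for that alone. Of 11070 protein-coding genes, 216 were over 0.95 with S100A3 and 470 with S100A13.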

How the data were processed

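RNA of HCT116SCs was sequenced as paired-end reads from NEBNext Ultra libraries, 3 NC and 3 siPSCA. The authors deposited FPKM values for 58735 genes with gene length and position, and the submitters' processing notes name GRCh38. The aligner, the counting program and the use of strand are not given in the sources used here. All 58735 gene starts and ends equal those of GENCODE release 29. FPKM times gene length gave whole multiples of a step (within 0.01 of a read) for 100% of values, from which each gene's reads were recovered.

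limma 3.58.1 (lmFit, eBayes with a mean-variance trend, 2-sided) in R 4.3.3 was fitted to log2(FPKM + 1) for 13796 genes that reached a mean FPKM of 1, with group as the only term and Benjamini-Hochberg adjustment over all of them. A gene under the minimum was taken from the same fit over 34391 genes with a read. Python 3.11.15, pandas 2.3.3, numpy 2.4.6, scipy 1.17.1 and matplotlib 3.10.9 were used for summaries, and the fit was tested on simulated data. The S100 genes, lists and tests were chosen with earlier results of these data known. Genes outside the set were named by rule: known partners, and in each list the 3 largest called changes whose groups did not overlap. Floors (3 reads) and intervals from reads cover counting error only. GC content came from GENCODE transcripts, and its trend and that of length (splines with 5 degrees of freedom) were removed from each library as an alternative. The other alternatives were a pseudocount of 0.1, no FPKM minimum or one of 5, TPM, median-of-ratios scaling, limma-voom on recovered reads, a replicate block, leaving out each library, and, chosen after seeing the data, the GC step without NC 3.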

Additional observations from a re-analysis of the deposited data

How the results depend on the processing

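S100A3, S100A4 and S100A13 kept their direction and their call under every alternative in which they were tested, S100A3 not being tested at a minimum of 5 FPKM. Leaving out single libraries gave 5 called S100 genes each time (4 higher, 1 lower), while 4610 to 7410 of all genes were called. The log2 fold changes were 0.92 to 1.204 for S100A3, 0.71 to 0.77 for S100A4, 0.34 to 0.44 for S100A6, 0.29 to 0.36 for S100A16 and -0.70 to -0.58 for S100A13. After removal of the GC and length trend 2 were called higher and 2 lower, against 39.8% of all genes called. When NC 3 was left out as well, 3 were called higher and 2 lower, S100A6 being called again, and 5898 of all genes were called. The cause was not tested.

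Of the S100 genes S100A2 and S100A10, and of the named partners ANXA1, CACYBP and S100PBP, changed sign. S100A2 was -0.0012 with TPM, -0.0826 after removal of the trend, -0.16 when NC 3 was left out as well, and -0.0506 to 0.13 over single libraries left out. S100A10 was 0.0049 with limma-voom and -0.0693 to 0.0396 over single libraries. ANXA1 was 0.29 after removal of the trend (0.28 without NC 3 as well) and -0.0746 to 0.0136 over single libraries, CACYBP was 0.0121 with limma-voom, 0.20 after removal of the trend (0.24 without NC 3 as well) and -0.0867 to 0.0776 over single libraries, and S100PBP was 0.0589 after removal of the trend (0.0121 without NC 3 as well).

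Over all genes, 4610 to 7410 were called when single libraries were left out, 2275 to 4025 of them higher and 2335 to 3385 lower, the fewest without siPSCA 1, and 2140 were called lower at a minimum of 5 FPKM, where fewer genes were tested. Between 1 and 4 neighbours on chromosome 1 were then called. Same-numbered libraries of the groups did not deviate together throughout (correlations of 0.0956, 0.0133 and 0.134 across 13796 genes), and not every library correlated best with its own number, so the numbers were not taken as pairs. With the replicate block 5 S100 genes and 6725 genes in all were called.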
